A study of Sus scrofa with 11 samples.

Results

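The early response of pig heart slices to culture was read from 5 RNA-seq libraries, 2 from slices kept for 2 days in stimulated culture and 3 from slices at day 0. They belong to a series of 11 libraries, with 3 further libraries each at day 6 and day 10 of stimulated culture. All libraries came from heart tissue of Yorkshire pigs aged 3 months with the genotype given as WT. The 5 libraries compared were assigned to their days by their labels. The comparison, the gene lists and the genes named were chosen with earlier results of these data known. The nature of the stimulation, the part of the heart that was cut, and whether the replicates of a day came from separate animals are not stated, so the p-values measure only the spread between these samples. The comparison was described across all 12625 genes with a mean of at least 1 FPKM (fragments scaled by gene length and by the fragments of the library) over the 11 libraries.

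Heart muscle cells, or cardiomyocytes, devote most of their messenger RNA to the contractile apparatus and to the mitochondria that feed it, and they burn mainly fatty acids, lactate and ketone bodies. When cut or isolated heart tissue is kept in culture, cardiomyocytes are known to lose parts of this programme, and the remaining cells of the tissue, such as fibroblasts, endothelial cells and macrophages, can change in number and state. In RNA from whole slices, fewer cells of a type and less RNA per cell cannot be told apart.

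The libraries held 13908422, 12624390 and 16402464 reads at day 0 and 16252171 and 12871234 at day 2, as recovered from the steps between FPKM values. Day 0 replicate 2 and day 2 replicate 1 stood apart, with 4536 and 4017 genes at 0 against 1533 to 1697 in the other 3. Long genes were low in day 0 replicate 2, with a median of 0.582 FPKM in the longest of 5 equal length classes and 3.07 in the shortest, against 5.58 and 9.54 in day 0 replicate 1. In day 2 replicate 1 these medians were 3.01 and 7.44 FPKM, and in day 2 replicate 2 they were 8.34 and 12.4. The share of genes that passed the test was 10.9% in the shortest class and 4.32% in the longest. Without both of these libraries 737 genes were higher and 638 lower, and 14 of the calls named hereafter ended. These were the calls of ESRRA, IMPDH1, PRPS1, PSMA5, PSMC1, PSMD3, ADM, IL6, IER3, DUSP10, TGFB3, NFKBIE, EGFL7 and PFN1 (limma adjusted p 0.0513 to 0.193).

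Over all genes, 1124 of 12625 (8.9%) differed between day 2 and day 0 in the limma test, which requires an adjusted p below 0.05. Of these, 727 (5.76%) were higher at day 2 and 397 (3.14%) were lower, and the libraries of the 2 days overlapped for 0 of them. There was no overlap between the libraries of both days for 4529 genes, or 35.9% of those tested. The smallest change that passed was 1.48 on the log2(FPKM + 1) scale, a scale that understates the change of genes with low levels. The median gene changed by 0.51, and by 0.00 after median ratio scaling, which called 337 genes higher and 815 lower, while quantile normalization called 707 higher and 1018 lower. The balance also turned to 842 higher and 921 lower without day 0 replicate 2, while limma voom on recovered reads gave 534 higher and 264 lower, so it depended on the scaling and on that library.

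The calls depended on single libraries. Without day 2 replicate 1, 360 genes passed and without day 2 replicate 2, 399. Without day 0 replicates 1, 2 and 3 in turn, 855, 1763 and 719 passed. 171 of the 1124 genes passed in each of these 5 fits, 86 higher and 85 lower. A fit of the 5 compared libraries alone called 17 genes, all among the 1124. Among them were MMP9, CYP1A1, CCL2, CLEC2B, NPM3, ODC1, PNP and PRDX1, which were higher, and KCNJ4, ASB2 and ITGB1BP2, which were lower. Calls given hereafter come from the fit of all 11 libraries, and beside each group the calls that ended without a library are named. Counts of called genes in a list stand beside 5.76% of all genes higher and 3.14% lower. A list with 1 call is therefore no result about that list.

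**Figure D1:**
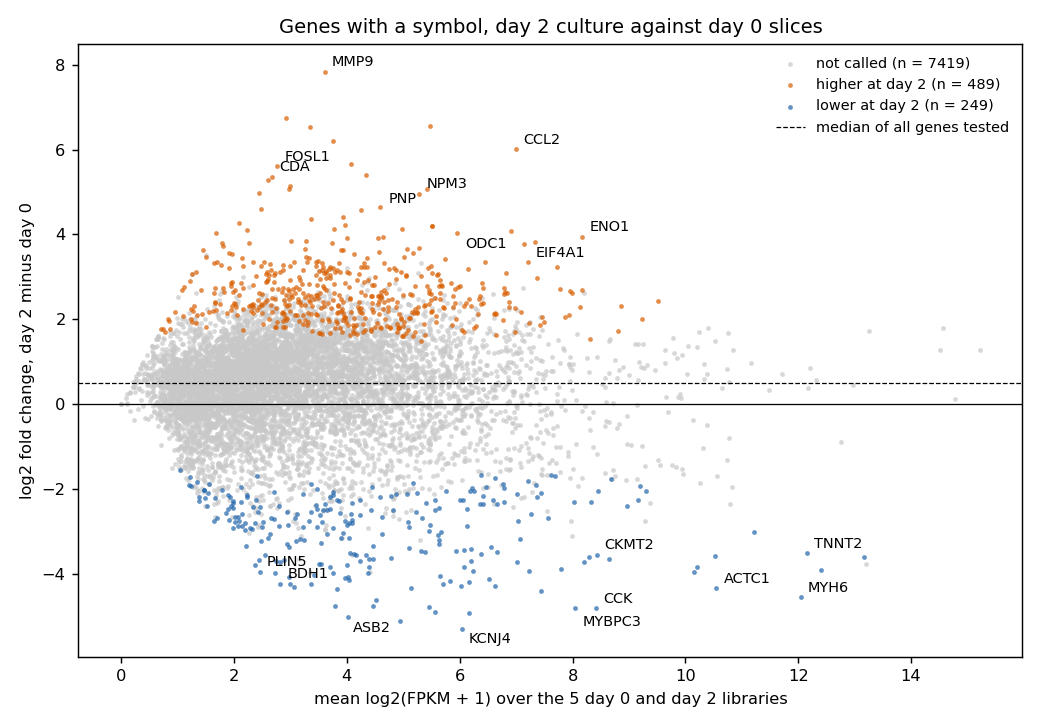
Log2 fold change between day 2 and day 0 against mean log2(FPKM + 1) over the 5 libraries, one point per gene with a symbol (489 higher in orange, 249 lower in blue), with labels on selected genes. Genes of contraction such as MYH6 and TNNT2 are low at day 2 at the right of the plot, where levels are highest, and the dashed line marks the median of all genes tested, 0.51.

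Among nuclear genes with a symbol, the most abundant at day 0 were mainly those of contraction, and at day 2 mainly those of ribosomes. Genes without a symbol were not ranked. The 8 highest genes at day 0, on the FPKM scale, were TNNC1, MYL3, MYH6, ACTA1, TNNT2, GAPDH, TPM1 and ACTC1. The 8 highest at day 2 were RPLP1, GAPDH, RPLP2, RPS12, RPS3, RPS23, TNNC1 and RPS18. TNNC1, the calcium-binding troponin, stood at 14479, 78131 and 16747 FPKM at day 0 and at 6187 and 617 at day 2. It did not pass the test (limma adjusted p = 0.052). GAPDH, the glycolytic enzyme often used as a reference, stood at 5492, 20113 and 6371 FPKM at day 0 and 8490 and 2661 at day 2, so its groups overlapped. The ribosomal protein gene RPS12 was at 996, 1064 and 1195 FPKM at day 0 and 5016 and 2371 at day 2 and did not pass either (limma adjusted p = 0.0728).

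MYH6, ACTC1, ACTN2, ACTA1, TNNT2, TPM1 and MYL3 of the contractile apparatus fell, whereas TNNC1 did not pass, and all of them were still at 31.6 FPKM or more in both day 2 libraries. MYH6, the alpha myosin heavy chain motor, was at 24753, 6878 and 19576 FPKM at day 0 and at 1106 and 360 at day 2. ACTC1, cardiac alpha-actin of the thin filament, was at 7126, 2639 and 6571 FPKM and then at 360 and 166. ACTN2, which crosslinks actin at the Z-disc, was at 867, 406 and 775 FPKM and then at 58.3 and 31.6. The lowest day 0 library lay above the highest day 2 library for all 3 genes, as for all genes called lower. Their log2 fold changes were -4.56 ± 0.68 (SE), -4.34 ± 0.63 and -3.88 ± 0.51 (limma adjusted p 0.00258, 0.00228 and 0.00154). ACTA1, the skeletal alpha-actin that young hearts also express, went from 17508, 18609 and 12609 FPKM to 2377 and 468 (log2 fold change -3.92 ± 0.67, limma adjusted p = 0.00442). For TNNT2, the tropomyosin-binding troponin, 11788, 12888 and 11725 FPKM stood against 3425 and 327. Day 2 replicate 2 was thus far below replicate 1 for TNNT2, and replicate 1 was above replicate 2 for each contractile gene named here. TPM1, a tropomyosin, fell by 3.01 ± 0.63 and MYL3, a ventricular myosin light chain, by 3.62 ± 0.89 on the log2 scale. Without day 2 replicate 2 the calls of TNNT2, TPM1 and MYL3 ended (limma adjusted p 0.13 to 0.233, log2 fold changes -2.42 to -1.82), and MYL3 also missed under median ratio scaling (limma adjusted p = 0.0543). Myosin, actin and ribosomal protein genes have close relatives that may share reads, so their levels are uncertain to that extent.

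Set against markers of other cell types, the summed level of the 10 measured cardiomyocyte markers was 66965, 89245 and 59743 FPKM at day 0 and 10980 and 2005 at day 2. Of these 10, 8 were lower and 2 did not pass, with a median log2 fold change of -3.725 beside 0.51 for all genes, and 4 were lower when day 2 replicate 2 was left out. The 10 endothelial markers summed to 671, 162 and 290 FPKM at day 0 and to 939 and 2476 at day 2. Of these, EGFL7, a secreted endothelial protein, and ERG, an endothelial transcription factor, were higher, and the other 8 did not pass. EGFL7 stood at 61.4, 106 and 34.7 FPKM against 387 and 232 (log2 fold change 2.28 ± 0.61, limma adjusted p = 0.0365). ERG stood at 12.9, 0.211 and 6.79 FPKM against 23.9 and 59.8 (log2 fold change 2.94 ± 0.84, limma adjusted p = 0.0479). PECAM1, the platelet and endothelial adhesion molecule, was at 422, 39.3 and 165 FPKM and then at 448 and 1709, without passing.

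Markers of the remaining cell types gave fewer calls. The 8 fibroblast markers summed to 2061, 382 and 1911 FPKM at day 0 and 445 and 540 at day 2, with 1 lower and 7 not past the test. The lower one was PI16, found in adventitial fibroblasts, at 50.5, 15.02 and 40.4 FPKM and then 3.89 and 0.155 (log2 fold change -3.77 ± 0.79, limma adjusted p = 0.0124). Without day 0 replicate 2, 4 of the 8 were lower. The matrix genes DCN and COL1A2 did not pass, at 493, 193 and 664 FPKM then 254 and 55.5 for DCN and 183, 30.6 and 124 then 19.3 and 92.8 for COL1A2. The 6 lymphocyte markers summed to 26.1, 41.1 and 44.2 FPKM at day 0 and 8.93 and 5.86 at day 2, and 2 of the 5 tested were lower. These were CD2, an adhesion receptor of T cells (log2 fold change -2.21 ± 0.49, limma adjusted p = 0.0165), and GNLY, a protein of cytotoxic granules (-2.07 ± 0.52, limma adjusted p = 0.0283). CD3D was at 0 in day 2 replicate 2. The 10 macrophage and monocyte markers summed to 407, 1050 and 337 FPKM and then 969 and 280, and 0 passed. The highest of these sums were those of the 2 libraries with few genes. C1QA, a complement subunit made by macrophages, was at 151, 613 and 128 FPKM and then 439 and 45.0. The 10 smooth muscle and pericyte markers overlapped between the days, at 407, 199 and 297 FPKM and then 95.6 and 581, and 0 passed, with MYH11 at 0 in day 0 replicate 2 and day 2 replicate 1. Their median log2 fold change was -1.15, and 0.06 without both libraries with few genes. The neutrophil markers S100A8 and LTF, the latter named after its values were seen, summed to 0.216, 0 and 0.549 FPKM at day 0 and 33.4 and 3.52 at day 2. S100A8 did not pass the test (limma adjusted p = 0.12), although it was higher at an unadjusted p below 0.05. Red cell, Schwann cell, adipocyte, mesothelial and lymphatic markers also gave 0 calls, with only 1, 3, 2, 2 and 5 markers tested. So few tested genes say little about these cell types. At an unadjusted p below 0.05, limma gave 2 of 10 macrophage, 1 of 10 smooth muscle and pericyte and 1 of 3 Schwann cell markers, and limma voom on recovered reads called 0 in each of these lists.

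Without day 2 replicate 2 the calls of EGFL7, ERG, PI16, CD2 and GNLY ended (limma adjusted p 0.0888 to 0.286). Those of EGFL7, ERG, CD2 and GNLY ended also without day 2 replicate 1 (limma adjusted p 0.0685 to 0.172) and without day 0 replicate 3 (0.0511 to 0.097), and that of EGFL7 without day 0 replicate 1 (limma adjusted p = 0.0689) and after median ratio scaling (limma adjusted p = 0.358). The part of changed cell proportions in the results that follow was not tested.

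**Figure D2:**
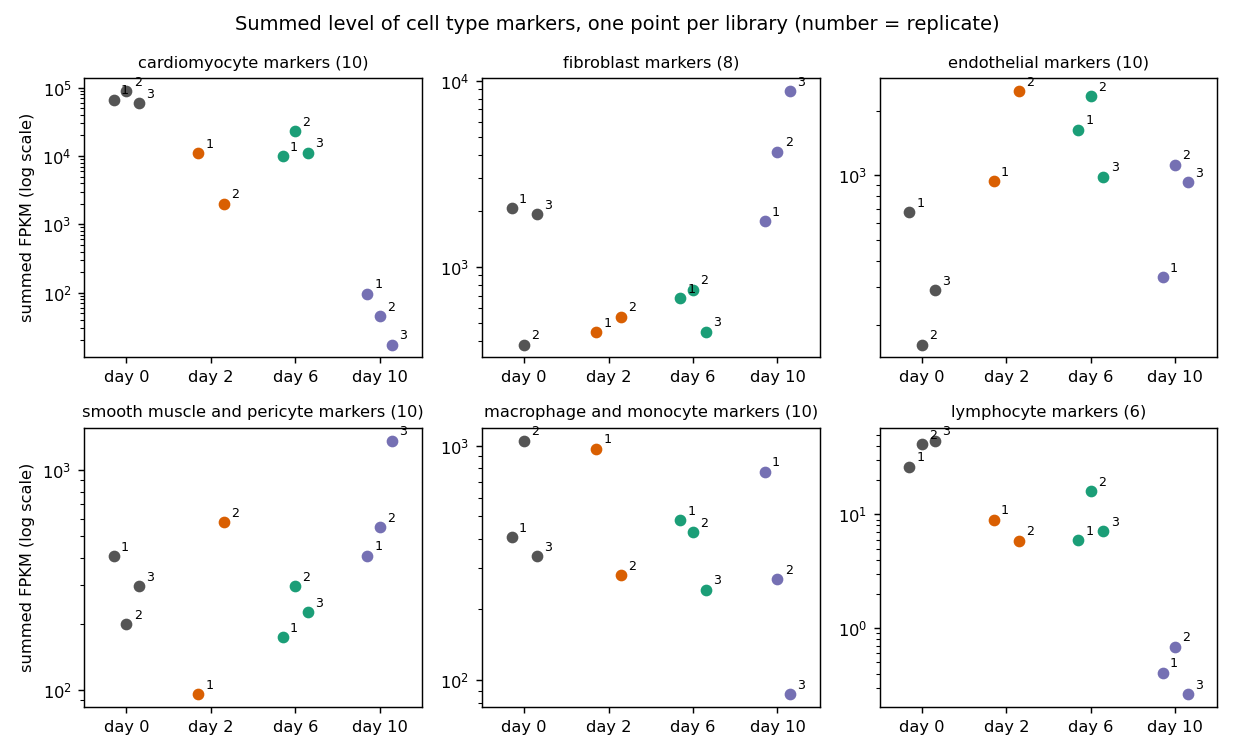
Summed FPKM of the markers of 6 cell types on a log scale by day, one point per library with its replicate number; the number in each title is how many markers were in the table. Cardiomyocyte sums fall from 59743 or more at day 0 to 10980 and 2005 at day 2, whereas macrophage sums of day 2 (969 and 280) span those of day 0 replicates 1 and 3.

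Of 10 tested genes that keep muscle proteins in shape and turn them over, 5 were lower and 5 did not pass (median log2 fold change -3.33). Leaving out day 0 replicates 1, 2 and 3 gave 3, 8 and 3 lower genes, and leaving out either day 2 library gave 3. Without both libraries with few genes there were 8. ASB2, a ubiquitin ligase subunit that degrades filamins, was at 122, 158 and 103 FPKM at day 0 and 3.27 and 2.14 at day 2 (log2 fold change -5.11 ± 0.63, limma adjusted p = 0.00112). UNC45B, the chaperone that folds myosin, was at 75.3, 34.3 and 69.9 FPKM and then 2.61 and 4.82 (-3.65 ± 0.55, limma adjusted p = 0.00262). MYOM2, an M-band protein, was at 477, 156 and 457 FPKM and then 21.4 and 11.4 (-4.28 ± 0.66, limma adjusted p = 0.00297). All 3 calls held without any of the 5 compared libraries.

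The membrane systems of the muscle cell showed 6 genes past the test. At the junction of transverse tubules and sarcoplasmic reticulum, SRL, a calcium-binding reticulum protein, went from 313, 75.0 and 184 FPKM to 3.56 and 6.82 (log2 fold change -4.78 ± 0.69, limma adjusted p = 0.00223). HRC, another calcium binder of the reticulum, went from 282, 139 and 188 FPKM to 21.9 and 7.05 (-3.85 ± 0.70, limma adjusted p = 0.00644). BIN1, which shapes transverse tubule membrane but is also made in many cell types, was the member of this list that was higher, at 8.24, 13.0 and 7.36 FPKM against 43.2 and 31.0. In the dystrophin complex, SGCA, alpha-sarcoglycan, fell by 2.89 ± 0.64 and DTNA, dystrobrevin alpha, by 3.36 ± 0.87 on the log2 scale. ANXA2, a membrane repair annexin found in many cell types, rose from 101, 48.1 and 81.2 FPKM to 249 and 448 (limma adjusted p = 0.0252). Without day 0 replicate 2, 5 of 6 triad genes and 4 of 7 dystrophin complex genes were lower, and 5 triad genes were also lower after median ratio scaling.

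Receptors and enzymes of the adrenergic pathway, which raises heart rate and force, were lower in 4 of 12 tested genes (median log2 fold change -1.40). ADRA1B, an alpha-adrenergic receptor, stood at 5.56, 3.33 and 3.96 FPKM at day 0 and 0.176 and 0.260 at day 2 (log2 fold change -2.10 ± 0.44, limma adjusted p = 0.0131). ADCY5 and ADCY6, the main adenylyl cyclases of the heart, stood at 11.2, 3.73 and 10.8 FPKM then 0.173 and 0.641, and at 131, 29.99 and 111 FPKM then 5.96 and 14.2. Every day 2 library was below every day 0 library for these genes, as for all genes called lower. The count was 7 without day 0 replicate 2, 1 without day 0 replicate 1 or 3, and 0 without either day 2 library.

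Among the genes of membranes and adrenergic signalling named here, the calls of DTNA, ANXA2, BIN1, ADRA1B, ADCY5 and ADCY6 ended without day 2 replicate 1 (limma adjusted p 0.0619 to 0.181). Those of SGCA, ANXA2, HRC, BIN1, ADRA1B, ADCY5 and ADCY6 ended without day 2 replicate 2 (limma adjusted p 0.0637 to 0.197). DTNA, BIN1, ADCY5 and ADCY6 also missed without day 0 replicate 1 (0.0583 to 0.087), and these and ANXA2 without day 0 replicate 3 (0.0503 to 0.0866). ANXA2 and BIN1 missed under median ratio scaling (limma adjusted p 0.179 and 0.362).

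In the transfer of energy from mitochondria to the filaments, a muscle gene was lower and a gene of other tissues higher in 2 families. CKMT2, the creatine kinase of muscle mitochondria, stood at 1054, 696 and 1064 FPKM at day 0 and 127 and 47.0 at day 2 (log2 fold change -3.56 ± 0.52, limma adjusted p = 0.0024). CKB, the brain-type cytosolic creatine kinase, stood at 22.0, 26.5 and 14.003 FPKM and then 235 and 69.9 (2.61 ± 0.57, limma adjusted p = 0.0154). These 2 creatine kinases lie in different compartments and are not a matched pair of forms. A matched pair was noticed after the values were seen among the carriers that exchange ADP and ATP across the inner mitochondrial membrane. SLC25A4, the heart and muscle form, was at 2964, 4769 and 2835 FPKM and then 371 and 127 (-3.97 ± 0.64, limma adjusted p = 0.0037). SLC25A5, the form of dividing cells, was at 36.0, 16.2 and 38.5 FPKM and then 232 and 308 (3.20 ± 0.54, limma adjusted p = 0.00422). In day 2 replicate 2 SLC25A5 was thus above SLC25A4 on the per-length FPKM scale, and at day 0 it was far below it in every library.

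Other energy genes that passed were lower. AK1, muscle adenylate kinase, had a log2 fold change of -3.37 ± 0.89 and CHCHD10, a protein of the cristae, one of -3.73 ± 0.74. ESRRA, a nuclear receptor that drives mitochondrial genes, stood at 128, 188 and 93.9 FPKM and then 48.1 and 33.7 (log2 fold change -1.68 ± 0.48, limma adjusted p = 0.0473). ESRRA was the called member of 8 mitochondrial biogenesis regulators and CHCHD10 that of 7 genes of mitochondrial shape. Over all genes 3.14% were lower. Without day 0 replicate 2 each of these 2 lists had 4 lower genes. The ESRRA call ended without any 1 of the 5 libraries (log2 fold change -1.93 to -1.42, limma adjusted p 0.0527 to 0.259). The CKB call ended without day 2 replicate 1 and that of CHCHD10 without day 2 replicate 2 (limma adjusted p 0.142 and 0.11). CKB and ESRRA missed after median ratio scaling (limma adjusted p 0.208 and 0.0573). AK1 missed without day 0 replicate 1 (limma adjusted p = 0.0552) and without day 2 replicate 2 (limma adjusted p = 0.283).

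Several genes for the fuels that a beating heart prefers were lower at day 2, while the lactate exporter SLC16A3 and the enolase ENO1 were higher. PLIN5, which coats lipid droplets and ties them to mitochondria, was at 15.6, 12.8 and 18.4 FPKM at day 0 and 0 and 0.123 at day 2 (log2 fold change -3.95 ± 0.44, limma adjusted p = 0.000587). ANGPTL4, a secreted inhibitor of lipoprotein lipase, was at 3.49, 3.72 and 3.31 FPKM and then 99.6 and 90.0 (4.41 ± 0.47, limma adjusted p = 0.000489). Both are targets of PPAR nuclear receptors, and the other 5 tested genes of that list did not pass. The replicates of each day lay close together for both genes, and both calls held in every fit without a compared library.

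Ketone body and glycogen genes gave 2 lower genes each, of 4 and 12 tested. BDH1, the first enzyme of ketone body oxidation, stood at 28.4, 15.1 and 24.4 FPKM and then 0 and 0.475 (log2 fold change -4.24 ± 0.69, limma adjusted p = 0.00372). OXCT1, the transferase that activates acetoacetate, stood at 193, 26.5 and 185 FPKM and then 11.6 and 11.7 (-2.98 ± 0.72, limma adjusted p = 0.0234). Day 0 replicate 2 was the low library for OXCT1, and without it all 4 ketone body genes were lower. PYGM, the muscle glycogen phosphorylase, went from 247, 222 and 156 FPKM to 21.2 and 10.2. PYGB, the brain-type phosphorylase, went from 442, 142 and 351 FPKM to 5.96 and 11.1, so here both forms were lower. Their log2 fold changes were -3.70 ± 0.62 and -4.94 ± 0.62 (limma adjusted p 0.00405 and 0.00124), and without day 0 replicate 2, 5 of the 12 glycogen genes were lower.

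Breakdown of branched-chain amino acids had 3 lower genes of 15, with a median log2 fold change of -1.79. IVD, isovaleryl-CoA dehydrogenase of the leucine pathway, stood at 71.9, 30.6 and 73.0 FPKM and then 3.32 and 5.86 (log2 fold change -3.35 ± 0.61, limma adjusted p = 0.00644). BCKDHB, a subunit of the complex that commits these amino acids to oxidation, fell by 3.16 ± 0.70 and BCAT2, their mitochondrial transaminase, by 2.11 ± 0.50 on the log2 scale. There were 11 lower genes when day 0 replicate 2 was left out, 0 when day 2 replicate 1 was and 1 when day 2 replicate 2 was. Without both libraries with few genes 7 were lower, after median ratio scaling 9 and after quantile normalization 13.

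Among transporters, SLC16A3, which exports lactate from glycolytic cells, rose and SLC2A4, the insulin-responsive glucose transporter of muscle and fat, fell. SLC16A3 was at 4.39, 5.37 and 7.08 FPKM and then 124 and 45.6 (log2 fold change 3.55 ± 0.56, limma adjusted p = 0.00322). SLC2A4 was at 10.3, 2.25 and 7.39 FPKM and then 1.04 and 0.141 (-2.15 ± 0.58, limma adjusted p = 0.0365). ENO1, the enolase of most tissues and chosen after its values were seen, was at 98.5, 120 and 72.8 FPKM and then 1559 and 1407 (3.95 ± 0.44, limma adjusted p = 0.000621). Its 2 day 2 libraries differed from each other far less than from day 0.

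Of the fuel genes named, the calls of SLC2A4, BCKDHB, BCAT2 and OXCT1 ended without either day 2 library, and that of IVD without day 2 replicate 1. Limma adjusted p values were 0.0617 to 0.106 without day 2 replicate 1 and 0.0918 to 0.23 without day 2 replicate 2. SLC2A4 and OXCT1 also missed without day 0 replicate 1 (0.0923 and 0.0642) or 3 (0.0857 and 0.0677). The calls of PLIN5, ANGPTL4, BDH1, PYGM, PYGB, SLC16A3 and ENO1 held in those 5 fits.

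**Figure D3:**
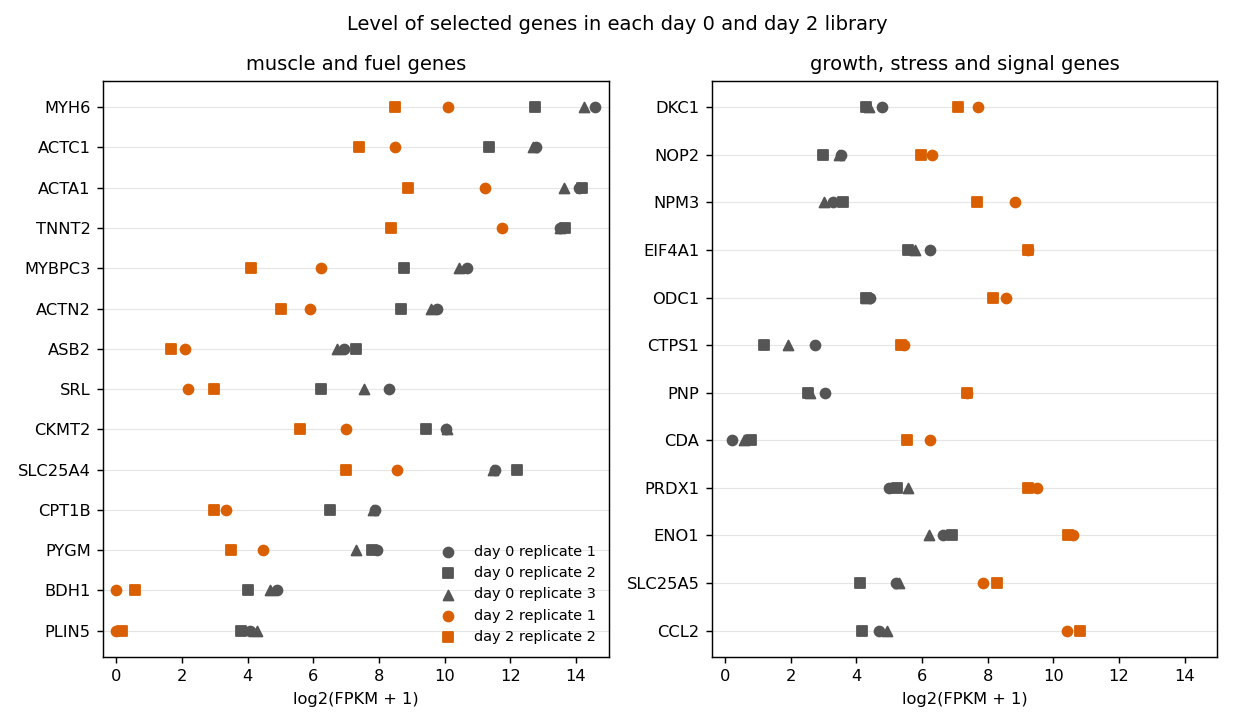
Level of 26 genes in each of the 5 libraries on a log2(FPKM + 1) axis, day 0 in grey and day 2 in orange, with the symbol giving the replicate. On the left, muscle and fuel genes lie higher in every day 0 library. On the right, growth, stress and signal genes lie higher in every day 2 library, as for ODC1 (18.4 to 20.3 FPKM against 283 and 379). The libraries of the days did not overlap for any called gene.

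Ribosome assembly was the list with most higher genes. Of 20 tested genes of ribosome biogenesis, which process ribosomal RNA in the nucleolus, 13 rose, 7 did not pass and 0 fell, with a median log2 fold change of 2.55. DKC1, the pseudouridine synthase dyskerin, was at 26.5, 18.4 and 19.996 FPKM at day 0 and 206 and 137 at day 2 (log2 fold change 2.92 ± 0.47, limma adjusted p = 0.00373). NOP2, a methyltransferase of ribosomal RNA, was at 10.5, 6.88 and 10.1 FPKM and then 77.8 and 62.0 (2.81 ± 0.48, limma adjusted p = 0.00442). PES1, a factor of the large subunit, was at 12.1, 16.7 and 11.2 FPKM and then 80.8 and 56.4 (2.28 ± 0.45, limma adjusted p = 0.00952). Day 2 replicate 1 was the higher of the 2 for all 3. NPM3, a nucleolar relative of nucleophosmin named after its values were seen, went from 8.80, 11.04 and 6.998 FPKM to 455 and 203 (4.96 ± 0.53, limma adjusted p = 0.000489). The count of 13 was 14 without any 1 of the day 0 libraries, 2 without day 2 replicate 1 and 5 without day 2 replicate 2, and 9 after median ratio scaling. Without both libraries with few genes 11 were higher and 1 was lower.

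Genes of protein synthesis itself gave calls among tRNA synthetases and translation factors. Of 17 cytosolic tRNA synthetases, which load amino acids on tRNA, 7 rose and 10 did not pass (median 2.19). CARS1 for cysteine, SARS1 for serine and GARS1 for glycine had log2 fold changes of 3.06 ± 0.51, 2.86 ± 0.50 and 2.69 ± 0.56 (limma adjusted p 0.00422, 0.00531 and 0.0122). SARS1 was at 43.7, 32.1 and 36.0 FPKM and then 355 and 213. Leaving out day 2 replicate 1 gave 0 higher synthetases, leaving out day 2 replicate 2 gave 2, and after median ratio scaling there were 3. EIF4A1, the helicase that unwinds messenger RNA for initiation, was at 74.7, 46.4 and 54.6 FPKM and then 592 and 597 (3.35 ± 0.46, limma adjusted p = 0.00166). EIF4EBP1, the repressor of initiation that mTOR inactivates, was at 43.5, 130 and 28.8 FPKM and then 568 and 202 (2.61 ± 0.72, limma adjusted p = 0.0398). These were the 2 called of 11 translation factors, and the other 9 did not pass. None of 12 cytosolic ribosomal protein genes passed (0 higher, 0 lower, median 0.90), and RPS3 stood at 1777, 4944 and 2058 FPKM against 4663 and 2323. None of 10 chaperonin subunits passed either (median 1.70), and CCT7 stood at 193, 239 and 154 FPKM against 393 and 320. At an unadjusted p below 0.05, 2 ribosomal protein genes and 7 chaperonin subunits were higher, and limma voom called 0 in both lists. KPNA2, an importin that carries proteins into the nucleus, was the called member of 12 nuclear transport genes, beside 5.76% of all genes higher. It stood at 9.49, 0.932 and 8.88 FPKM and then 28.1 and 85.8 (limma adjusted p = 0.0281).

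The calls of PES1, EIF4EBP1, CARS1, SARS1, GARS1 and KPNA2 ended without day 2 replicate 1 (limma adjusted p 0.0506 to 0.203), and those of EIF4EBP1, GARS1 and KPNA2 without day 2 replicate 2 (0.0611 to 0.229). EIF4EBP1 also missed when day 0 replicate 1 or 3 was left out (0.0851 and 0.102). After median ratio scaling PES1, EIF4EBP1, CARS1 and SARS1 missed (limma adjusted p 0.0547 to 0.324). The calls of DKC1, NOP2, NPM3 and EIF4A1 held in all of these.

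Routes that supply nucleotides, NADPH and polyamines rose in part. In the pentose phosphate and NADPH list 4 of 8 genes were higher (median 1.72), and the count was 2 without day 2 replicate 1 and 1 after median ratio scaling. PGD, a dehydrogenase of the pathway, was at 29.1, 25.2 and 28.1 FPKM at day 0 and 205 and 169 at day 2 (log2 fold change 2.72 ± 0.50, limma adjusted p = 0.00644). TKT, transketolase, rose by 2.81 ± 0.47 on the log2 scale. Of 13 purine and pyrimidine synthesis genes 3 were higher. CTPS1, which makes CTP, was at 5.74, 1.29 and 2.74 FPKM and then 42.6 and 39.8 (3.45 ± 0.54, limma adjusted p = 0.00315). IMPDH1, of guanine nucleotide synthesis, rose by 2.44 ± 0.61 and PRPS1, which makes the ribose donor, by 1.81 ± 0.51. PNP and CDA salvage nucleosides, and their fold changes were larger. PNP, purine nucleoside phosphorylase, which was named after its values were seen, went from 7.29, 4.78 and 4.99 FPKM to 163 and 166 (4.65 ± 0.55, limma adjusted p = 0.000957). CDA, cytidine deaminase, went from 0.162, 0.713 and 0.480 FPKM to 74.2 and 45.2 (5.36 ± 0.56, limma adjusted p = 0.000489).

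ODC1, the first enzyme of polyamine synthesis and a textbook early growth gene, was at 20.3, 18.4 and 18.8 FPKM at day 0 and 379 and 283 at day 2 (log2 fold change 4.03 ± 0.52, limma adjusted p = 0.00152). SMOX, spermine oxidase, rose by 3.36 ± 0.60 (limma adjusted p = 0.00576), and the other 5 of 7 polyamine genes did not pass. In serine and one-carbon metabolism 3 of 8 genes were higher. MTHFD1L, of the mitochondrial folate pathway, was at 1.79, 1.37 and 1.89 FPKM and then 13.6 and 28.0 (2.94 ± 0.53, limma adjusted p = 0.006). PHGDH and PSAT1, the first enzymes of serine synthesis, rose by 2.67 ± 0.56 and 2.61 ± 0.68 on the log2 scale. Of 8 amino acid transporters 3 were higher. SLC3A2, the shared heavy chain of several exchangers, was at 24.5, 26.1 and 11.8 FPKM and then 382 and 129 (3.43 ± 0.57, limma adjusted p = 0.0041). SLC1A5, a glutamine carrier, rose by 2.41 ± 0.52 and SLC7A11, the cystine importer, by 2.30 ± 0.64.

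Of these building block genes, the calls of PGD, IMPDH1, PRPS1, SMOX, SLC3A2 and SLC1A5 ended without day 2 replicate 1 (limma adjusted p 0.0511 to 0.131). Those of MTHFD1L, PHGDH, PSAT1, IMPDH1, PRPS1, SLC1A5 and SLC7A11 ended without day 2 replicate 2 (0.0655 to 0.316). PRPS1 and SLC7A11 missed without day 0 replicate 1 (0.0534 and 0.0906), and PSAT1, IMPDH1, PRPS1 and SLC7A11 without day 0 replicate 3 (0.0522 to 0.0742). After median ratio scaling TKT, PGD, PHGDH, IMPDH1, PRPS1, SLC3A2 and SLC1A5 missed (limma adjusted p 0.0637 to 0.223). The calls of CTPS1, PNP, CDA and ODC1 held in all of these.

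**Figure D4:**
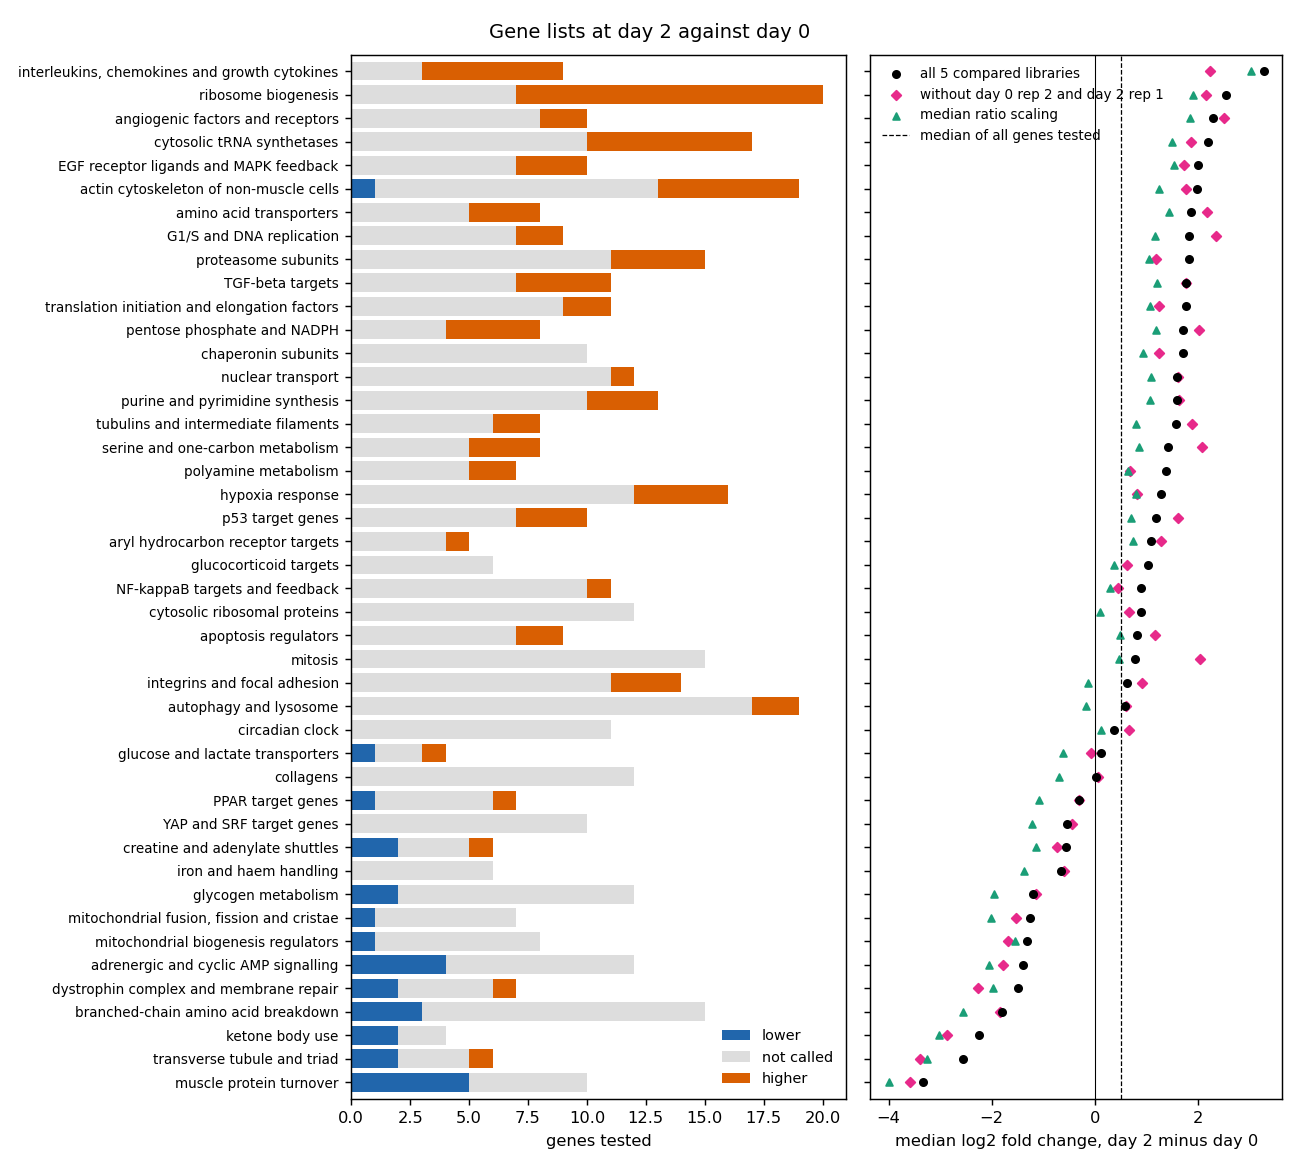
Left, tested genes of each list that were lower, not called or higher at day 2. Right, the list median of the log2 fold change with all 5 compared libraries (black), without the 2 libraries with few genes (pink) and after median ratio scaling (green), with a dashed line at the median of all genes, 0.51. Lists run from muscle protein turnover (median -3.33) to interleukins, chemokines and growth cytokines (3.28).

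Among genes of protein degradation, calls came mainly from the proteasome. Of 15 proteasome subunits 4 rose and 11 did not pass (median 1.82), but the count was 2 without day 0 replicate 3, and 0 without either day 2 library, without both libraries with few genes or after median ratio scaling. PSMA5, a subunit of the core particle, was at 53.1, 24.0 and 59.2 FPKM and then 256 and 191 (log2 fold change 2.36 ± 0.54, limma adjusted p = 0.0188). PSMC1 and PSMD3, of the regulatory particle, rose by 1.98 ± 0.48 and 1.85 ± 0.45 on the log2 scale. Of 19 autophagy and lysosome genes 2 rose, beside 5.76% of all genes, with a median of 0.58 beside 0.51 for all genes. CTSL, the lysosomal protease cathepsin L, was at 0.532, 0.176 and 1.08 FPKM at day 0 and 55.6 and 23.9 at day 2 (4.60 ± 0.69, limma adjusted p = 0.00258). SQSTM1, the cargo receptor p62, was at 150, 122 and 137 FPKM and then 664 and 513 (2.10 ± 0.43, limma adjusted p = 0.0118).

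Some genes of each of several stress lists rose, while most members did not pass. In the hypoxia response list 4 of 16 genes were higher (median 1.28), and 0 were without either day 2 library. LDHA, the lactate dehydrogenase of glycolytic tissue, was at 68.0, 18.0 and 83.3 FPKM at day 0 and 431 and 383 at day 2 (log2 fold change 3.09 ± 0.62, limma adjusted p = 0.00999). NDRG1 and ADM, both induced by low oxygen, had log2 fold changes of 3.08 ± 0.76 and 3.13 ± 0.81 (limma adjusted p 0.0258 and 0.0314). Of 10 p53 target genes 3 were higher, namely AEN, a nuclease, PLK3, a stress kinase, and SESN2, which restrains mTOR. In that list 2 genes were lower without day 0 replicate 2, and 1 was lower after median ratio scaling or quantile normalization. The number of higher p53 targets was 3 in each of these fits. SESN2 was at 0.765, 0.458 and 0.315 FPKM and then 30.2 and 20.1 (4.09 ± 0.76, limma adjusted p = 0.00718), AEN rose by 2.56 ± 0.43 and PLK3 by 3.29 ± 0.61. Among 9 apoptosis regulators the promoters of cell death PMAIP1 and BID were higher, by 2.75 ± 0.59 and 2.29 ± 0.53. PRDX1, a peroxide-reducing peroxiredoxin chosen after its values were seen, was at 31.0, 36.4 and 46.9 FPKM and then 723 and 593 (4.09 ± 0.60, limma adjusted p = 0.0024). SRXN1, which repairs peroxiredoxins, was at 3.38, 0.282 and 1.47 FPKM and then 241 and 130. CYP1A1, the oxidase induced through the aryl hydrocarbon receptor, was at 0.103, 0 and 0.435 FPKM and then 71.8 and 213. ZFAND2A, a zinc finger gene induced by arsenite and heat, was at 3.94, 1.36 and 2.62 FPKM and then 472 and 64.9. The last 3 had log2 fold changes of 6.21 ± 0.65, 6.74 ± 0.88 and 5.66 ± 0.91, and their libraries did not overlap, as for all called genes. None of 6 iron and haem genes passed (0 higher, 0 lower), and the transferrin receptor TFRC was at 84.1, 3.96 and 157 FPKM and then 11.6 and 77.0. At an unadjusted p below 0.05, 2 iron and haem genes differed, and limma voom called 0.

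The calls of PSMA5, PSMC1, PSMD3, SQSTM1, LDHA, NDRG1, ADM, PMAIP1 and BID ended without either day 2 library, and that of SESN2 without day 2 replicate 1. Limma adjusted p values were 0.0581 to 0.155 without day 2 replicate 1 and 0.0517 to 0.201 without day 2 replicate 2. PSMD3 and BID also missed without day 0 replicate 3 (0.0707 and 0.0561). After median ratio scaling PSMA5, PSMC1, PSMD3, SQSTM1, ADM and BID missed (limma adjusted p 0.0613 to 0.395). The calls of CTSL, AEN, PLK3, PRDX1, SRXN1, CYP1A1 and ZFAND2A held in these.

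Secreted signals gave the highest median among lists with at least 4 tested genes. Of 9 tested interleukins, chemokines and growth cytokines 6 rose and 3 did not pass (median log2 fold change 3.28), with 3 higher without day 2 replicate 1 and 4 without day 2 replicate 2. When both libraries with few genes were left out, 3 were higher. CCL2, which recruits monocytes, was at 24.6, 16.9 and 29.4 FPKM at day 0 and 1355 and 1783 at day 2 (log2 fold change 6.01 ± 0.56, limma adjusted p = 0.000489). CXCL8, the neutrophil attractant interleukin 8, was at 0.243, 0 and 1.24 FPKM and then 21.3 and 134 (5.28 ± 1.17, limma adjusted p = 0.0163). IL6, named after its values were seen, was listed at 0 in all 3 day 0 libraries and stood at 31.7 and 3.73 FPKM at day 2. CLCF1, a cytokine of the interleukin 6 family, was at 0.677, 0.0995 and 0.383 FPKM and then 10.7 and 14.05 (3.28 ± 0.50, limma adjusted p = 0.00266). CTF1, cardiotrophin, belongs to the same family and was picked after its values were seen. It moved the other way, from 12.6, 21.3 and 11.9 FPKM to 0 and 0.765 (-3.57 ± 0.53, limma adjusted p = 0.00247).

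Targets and feedback genes of growth signalling were higher in part. TGIF1, a repressor of TGF-beta signalling, was at 7.11, 1.63 and 6.11 FPKM and then 35.9 and 62.0 (log2 fold change 3.18 ± 0.57, limma adjusted p = 0.006). It rose together with the ligand TGFB3, whose log2 fold change was 2.41 ± 0.62. These were among 4 higher of 11 genes of that list (median 1.78), with 2 without day 0 replicate 3 or day 2 replicate 1 and 1 without day 2 replicate 2, and after either median ratio scaling or quantile normalization 2. FOSL1, an AP-1 subunit among the largest changes of genes with a symbol, was at 0.707, 0.446 and 0.206 FPKM and then 80.2 and 59.4 (5.61 ± 0.55, limma adjusted p = 0.000489). Of 10 genes of EGF receptor ligands and MAPK feedback, 3 were higher, namely IER3, ETV4 and DUSP10, by 2.56 ± 0.56, 2.42 ± 0.60 and 2.75 ± 0.78. Among 10 angiogenic genes TNFRSF12A, the receptor for TWEAK, rose by 2.70 ± 0.60 and ANGPT2, an endothelial ligand, by 2.39 ± 0.68. NFKBIE, an inhibitor of NF-kappaB, was the called one of 11 genes of that pathway, beside 5.76% of all genes higher (2.14 ± 0.56, limma adjusted p = 0.0328). 0 of 10 YAP and SRF targets, 0 of 11 circadian clock genes and 0 of 6 glucocorticoid targets passed, against 1, 2 and 0 at an unadjusted limma p below 0.05 and 0 by limma voom. ANKRD1, a load-responsive nuclear protein, was at 1376, 556 and 2572 FPKM and then 2620 and 357. PER1, a clock repressor, was at 65.7, 20.3 and 42.9 FPKM and then 17.8 and 22.4, with overlapping groups for both genes.

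Of the signal genes named, the calls of IL6, IER3, DUSP10, TNFRSF12A, TGFB3 and NFKBIE ended without day 2 replicate 1 (limma adjusted p 0.0992 to 0.191). Those of CXCL8, ETV4, DUSP10, TNFRSF12A, ANGPT2, TGIF1, TGFB3 and NFKBIE ended without day 2 replicate 2 (0.0581 to 0.344). DUSP10 and ANGPT2 missed without day 0 replicate 1 (0.0757 and 0.0642) or 2 (0.0569 and 0.0589), and ETV4, DUSP10, TNFRSF12A, ANGPT2, TGFB3 and NFKBIE without day 0 replicate 3 (0.0524 to 0.0868). After median ratio scaling IER3, DUSP10, TNFRSF12A, TGFB3 and NFKBIE missed (limma adjusted p 0.0566 to 0.258). The calls of CCL2, CLCF1, CTF1 and FOSL1 held throughout.

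In the cytoskeleton of non-muscle cells 6 of 19 genes were higher and 1 was lower (median 1.98), and 0 passed without day 2 replicate 1 and 1 without day 2 replicate 2. Median ratio scaling left 0 of the 19 past the test, with a median of 1.24. CFL1, the actin-severing protein cofilin, was at 281, 321 and 158 FPKM at day 0 and 1102 and 1315 at day 2 (log2 fold change 2.31 ± 0.49, limma adjusted p = 0.0127). CAPG, which caps actin filaments and is rich in macrophages, was at 21.1, 30.3 and 12.1 FPKM and then 203 and 149 (3.07 ± 0.55, limma adjusted p = 0.00625), and FSCN1, which bundles them, rose by 2.57 ± 0.57. The lower gene was PFN1, profilin, at 283, 496 and 211 FPKM and then 116 and 80.5 (-1.67 ± 0.47, limma adjusted p = 0.0437), named after its values were seen. LMNA, of the nuclear lamina, rose by 1.95 ± 0.46 and TUBA1B, an alpha-tubulin, by 1.73 ± 0.49. Among 14 integrin and focal adhesion genes, CD44, the hyaluronan receptor, was at 28.3, 7.71 and 18.2 FPKM and then 126 and 108 (2.79 ± 0.53, limma adjusted p = 0.00772). The integrins ITGA3 and ITGB3 rose by 2.71 ± 0.62 and 3.25 ± 0.82. The other 11 genes of that list did not pass, and its median was 0.62 beside 0.51 for all genes. After median ratio scaling the list median was -0.135, with 4 genes higher and 1 lower. Leaving out day 0 replicate 2 gave 3 higher and 1 lower. None of 12 collagen genes passed (0 higher, 0 lower, median 0.02), and COL3A1 was at 1146, 92.5 and 934 FPKM and then 97.6 and 197. The collagen median was 0.89 without day 2 replicate 1 and -1.04 without day 2 replicate 2, and 1 collagen gene was lower without day 0 replicate 2. For collagens the count was also 0 at an unadjusted limma p below 0.05 and by limma voom.

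Cell cycle genes gave 2 calls. MCM3 and MCM4, subunits of the helicase that opens DNA for replication, were higher among 9 genes of the G1/S transition, by 2.50 ± 0.62 and 2.61 ± 0.67 on the log2 scale (limma adjusted p 0.0256 and 0.0307). MCM4 was at 6.54, 1.67 and 3.56 FPKM and then 17.5 and 39.9. Of the 9 G1/S genes 0 passed without day 0 replicate 3 or after scaling to equal FPKM totals. Over all genes 5.76% were higher. Of 15 mitosis genes 0 passed (median 0.78), and the median turned from 2.46 without day 2 replicate 1 to -0.535 without day 2 replicate 2. Without the 2 libraries with few genes it was 2.04, and UBE2C was higher there (limma adjusted p = 0.044). With all libraries there was 1 mitosis gene at an unadjusted limma p below 0.05, and limma voom called 0. The mitotic ubiquitin enzyme UBE2C stood at 5.74, 6.10 and 4.81 FPKM and then 9.48 and 35.0, and the kinase AURKB at 5.29, 6.36 and 4.08 and then 0.824 and 14.1. Day 2 replicate 1 was the lower of the 2 for all 3 of these genes.

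For structure and cell cycle genes, the calls of CAPG, CFL1, FSCN1, PFN1, LMNA, TUBA1B, CD44, ITGB3 and MCM4 ended without day 2 replicate 1 (limma adjusted p 0.0515 to 0.11). Those of CFL1, FSCN1, PFN1, LMNA, TUBA1B, ITGA3, ITGB3, MCM3 and MCM4 ended without day 2 replicate 2 (0.0853 to 0.272). PFN1 and TUBA1B missed without day 0 replicate 1 (0.0732 and 0.108), and LMNA, TUBA1B, ITGA3, MCM3 and MCM4 without day 0 replicate 3 (0.0536 to 0.0925). After median ratio scaling CAPG, CFL1, FSCN1, PFN1, LMNA and TUBA1B missed (limma adjusted p 0.0743 to 0.507).

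The largest rise of any gene with a symbol and a mean of at least 5 FPKM at day 2 was that of MMP9, a gelatinase that cuts extracellular matrix. It stood at 1.23, 0.0945 and 0.0970 FPKM at day 0 and 406 and 246 at day 2 (log2 fold change 7.84 ± 0.86, limma adjusted p = 0.000587). Next to it were ADAMTS4, a protease of proteoglycans, CLEC2B, a ligand of natural killer cell receptors, and STC1, a secreted glycoprotein, with log2 fold changes of 6.53 ± 0.83, 5.41 ± 0.59 and 5.15 ± 0.64. CLEC2B was at 4.21, 2.25 and 4.44 FPKM and then 172 and 212. CYP1A1, SRXN1, CCL2, ZFAND2A, FOSL1, CDA and CXCL8, described above, were also among the 12 largest rises.

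The largest fall, among genes with a symbol and a mean of at least 5 FPKM at day 0, was that of KCNJ4, an inward rectifier potassium channel. It went from 329, 351 and 197 FPKM to 7.96 and 4.79 (log2 fold change -5.30 ± 0.56, limma adjusted p = 0.000489). ITGB1BP2, or melusin, a muscle protein that binds integrins, went from 153, 174 and 232 FPKM to 5.32 and 5.01 (-4.91 ± 0.56, limma adjusted p = 0.000676). CCK, the peptide hormone cholecystokinin, was at 632, 2479 and 1400 FPKM and then 45.0 and 45.6 (-4.81 ± 0.74, limma adjusted p = 0.00297). MYBPC3, which tunes the myosin filament, was at 1647, 437 and 1390 FPKM and then 73.8 and 16.2. RXRG, a retinoid X receptor, SYNPO2L, a Z-disc protein, DAPL1 and INHA, the inhibin alpha subunit, had log2 fold changes of -4.76 ± 0.78, -4.63 ± 0.79, -5.03 ± 0.62 and -4.76 ± 0.96. Of these lower genes INHA alone missed when day 2 replicate 2 was left out (limma adjusted p = 0.098, log2 fold change -3.92), and the others held without each compared library. ASB2, PYGB, SRL and MYH6 complete the 12 largest falls.

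Levels at the later days were set beside day 2 in a test of day 6 against day 2, whose difference uses no day 0 library. The day 0 libraries still entered the estimate of the spread in that fit. In this limma test 0 of 12625 genes (0%) passed, with a smallest adjusted p of 0.246, 511 genes at an unadjusted p below 0.05 and 0 calls by limma voom on recovered reads. With 2 and 3 libraries this does not show that levels were equal. MYH6, with 1106 and 360 FPKM at day 2, reached 2063, 5295 and 2096 at day 6 and had 2.53, 1.39 and 1.30 left at day 10. OXCT1 stood at 11.6 and 11.7 FPKM at day 2 and at 71.9, 92.5 and 107 at day 6, above both day 2 libraries. ADRA1B likewise stood at 0.176 and 0.260 FPKM and then 2.45, 3.98 and 2.04. PLIN5 remained low, at 0.252, 0.764 and 0.131 FPKM at day 6 against 12.8 or more at day 0.

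Genes that were high at day 2 took different levels later. ODC1 was at 506, 337 and 266 FPKM at day 6, beside 379 and 283 at day 2, and had come down to 145, 49.0 and 61.1 by day 10. CDA was at 10.4, 9.46 and 3.62 FPKM at day 6, below both day 2 libraries (74.2 and 45.2), and at 49.5, 47.5 and 31.9 at day 10. SLC16A3 had a like order, falling from 124 and 45.6 FPKM to 23.9, 11.8 and 9.34 at day 6, with 103, 151 and 144 FPKM at day 10. CLEC2B was at 31.6, 25.5 and 19.3 FPKM at day 6 against 172 and 212 at day 2. STC1 was at 71.1, 103 and 61.7 FPKM at day 6, within its day 2 range of 39.9 to 112, and at 4.91, 11.1 and 9.08 at day 10. PHGDH was at 16.02, 6.52 and 16.6 FPKM at day 6 and at 121, 84.8 and 146 at day 10, above its 17.2 and 30.5 at day 2. These orders are descriptions of the libraries, since none of the day 6 differences passed the test.

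**Figure D5:**
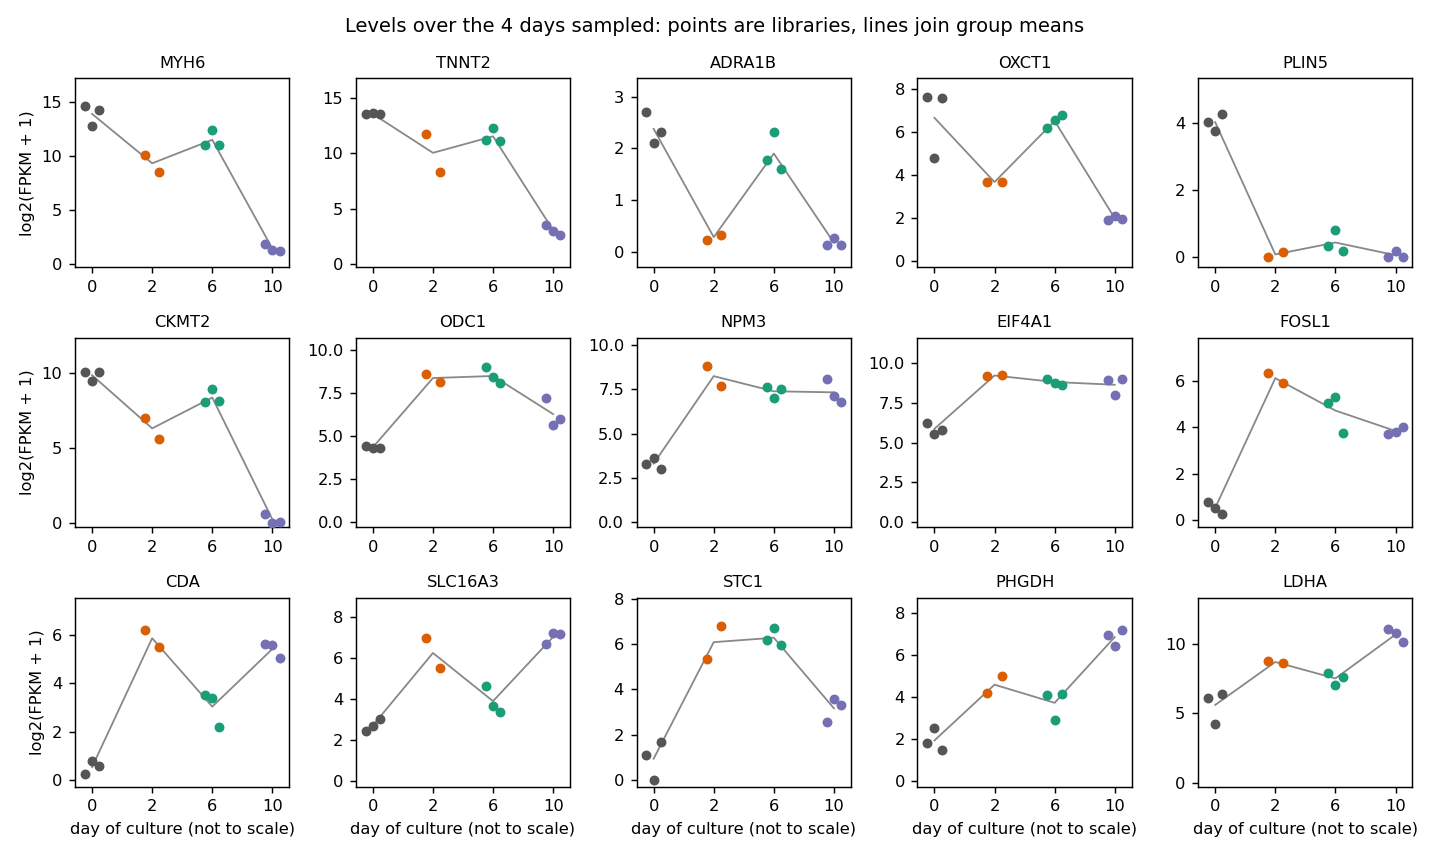
Levels of 15 genes as log2(FPKM + 1) at day 0, 2, 6 and 10, with points for libraries and lines through group means; the days are evenly spaced. MYH6 and OXCT1 dip at day 2 and lie higher at day 6 (OXCT1 71.9 to 107 FPKM), PLIN5 stays low, and CDA and SLC16A3 are low at day 6 between higher levels at days 2 and 10.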

How the data were processed

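RNA-seq values were analysed for 11 libraries of pig heart slices, made with an Illumina TruSeq kit from total RNA, per the labels. The deposited table holds 1 FPKM value per gene and library, computed by the authors. Bowtie 0.12.2 and mm8, which is a mouse build, stand without a role in the submitters' processing notes. For the counter, the annotation and the handling of shared reads, nothing is given in the sources used here. Of 16319 genes, 9686 had a symbol matched by identifier, and 246 were at 0 throughout. Sequences and their motifs were not used here. Reads were recovered from the steps between FPKM values, whole within a tolerance of 0.01 for 16073 genes, and gene lengths were inferred from the same steps for genes with at least 30 reads in 1 library. The recovery of reads and the limma fit were tested on simulated data, and the inference of gene lengths was not.

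Genes with a mean of at least 1 FPKM (12625, of which 8157 had a symbol) were tested as log2(FPKM + 1) in 1 limma 3.58.1 model of the 4 groups in R 4.3.3 (eBayes with trend, 7 residual and 5.89 prior degrees of freedom). The two-sided p-values were adjusted over all genes (Benjamini-Hochberg), with a threshold of 0.05. No replicate block was used, because the labels do not tie replicate numbers to animals. Alternatives were other pseudocounts, filters, scalings and variance models, voom on recovered reads, a block, and leaving out libraries.

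56 lists with 835 symbols were described by counts and medians, with no set test. The comparison, the lists and the genes were chosen with earlier results of these data known. Genes named were up to 3 called members of each list with the smallest p (or up to 2 abundant members where none was called), the 12 largest rises and falls with at least 5 FPKM in the higher group, the 8 most abundant nuclear genes of each day and up to 4 markers per cell type. Only genes with a symbol were ranked for these choices. Genes named outside this rule are said to be so. Of the genes so selected, some markers and uncalled list members are described only through their list, and a few are not reported here.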

Additional observations from a re-analysis of the deposited data

How the results depend on the processing

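Of 122 genes named with a call, 0 changed direction under any alternative. The libraries of both days overlapped for 0 of the called genes. Leaving out libraries or changing the pseudocount, the filter or the eBayes settings therefore could not reverse a direction. For those alternatives the unchanged direction is no test of the calls. With only the 5 compared libraries in the fit, 17 genes passed (11 higher, 6 lower), and 111 of the 122 missed. Equal FPKM totals gave 721 genes (432 higher), quantile normalization 1725 (1018 lower), median ratio scaling 337 higher and 815 lower, array weights 476 higher and 640 lower, and limma voom on recovered reads 264 lower. The median over all genes moved from 0.51 to 0.00 under median ratio scaling and 0.11 under quantile normalization. Leaving out 1 library at a time gave 360 to 1763 genes, 188 to 842 higher and 162 to 921 lower. Without both libraries with few genes 638 were lower, and 1375 passed in all. Leaving out a day 6 or day 10 library ended 5 to 16 of the 122 calls. The causes were not tested.

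Whether replicate numbers pair the libraries could not be decided. Of 15 pairs sharing a number, 9 had residuals correlated above 0.1, over a range of -0.552 to 0.469. Between days 6 and 10 the 3 such pairs were at 0.18 to 0.275 and the 6 other pairs at -0.176 to -0.035. With the replicate block 871 genes passed, 570 higher and 301 lower, 19 of the 122 named calls ended, and the endothelial markers and mitochondrial biogenesis regulators had 0 calls. For days 0 and 2 the correlations of pairs sharing a number were -0.463 and -0.552. With 2 libraries at day 2, their residuals mirror each other, so these values cannot decide the question.

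For day 6 against day 2, 1 gene passed without day 0 replicate 2 (OXCT1, higher, limma adjusted p = 0.0486) and 2 lower genes without a symbol passed without day 2 replicate 2, so single libraries gave 0 to 2. Without both libraries with few genes 4 passed, RRP12 and 2 genes without a symbol higher (3) and ESM1 lower (1), all chosen after their values were seen. Changes of single genes between these days were not recomputed under the alternatives. Other pseudocounts, filters and eBayes settings kept the day 2 counts within 1.5 times. Leaving out a day 2 library leaves 1, which is assumed to vary like the other groups. The number of libraries, 2 at day 2, limits what could be detected, and the smallest change that passed was 1.48 on the log2 scale.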
